A study of Mus musculus with 3 samples.

Results

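Arterial endothelial nuclei are the nuclei of the cells that line arteries and arterioles, and they were examined here in mouse heart tissue by single-nucleus RNA sequencing. A nucleus was taken as arterial when it held at least 2 UMIs (unique molecular identifiers, each standing for 1 RNA molecule) over the 4 marker genes Sema3g, Gja5, Sox17 and Hey1. It also needed at least 2 UMIs over the pan-endothelial genes Pecam1, Cdh5, Ptprb, Flt1 and Egfl7, no UMI of Npr3 or Prox1, and at most 1 UMI over Pdgfra, Dcn, Csf1r, Ptprc and Myh11. The members were thus chosen by their own counts of these genes, after filters for at least 300 genes, at most 10% mitochondrial UMIs and under 3% of UMIs from Ttn, Ryr2, Myh6 and Mhrt. The rule found 188 nuclei among 23823 deposited barcodes, 15758 nuclei after the 3 filters and 4645 vascular endothelial nuclei, which met every criterion but the arterial one. Of these, 92 came from Sham-NS, 63 from MI-NS and 33 from MI-DAPA.

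The 3 libraries came from hearts taken 2 weeks after surgery, and each stands for 1 group. Sham-NS had sham surgery and NS, MI-NS had myocardial infarction and NS, and MI-DAPA had myocardial infarction and dapagliflozin, an inhibitor of the glucose cotransporter SGLT2. NS is not spelled out in the labels, which also give no strain, age, dose or number of animals behind a library. With 1 library a group, differences between conditions have no replicate check. Values given as 3 numbers in a row are in the order Sham-NS, MI-NS, MI-DAPA. Intervals in brackets below are 95% intervals for counting error only, and they do not cover differences between animals, pieces of tissue or preparations.

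Arterial identity is set during development by VEGF and Notch signalling. The ligands Dll4, Jag1 and Jag2 activate Notch receptors on neighbouring cells, and the receptors then act with the DNA-binding protein RBPJ on targets such as Hey1, Hey2 and Efnb2. SOX17 works upstream of Notch in arteries. Arterial endothelium is also known for its connexins, Gja4 and Gja5, which couple endothelial and muscle cells electrically, for its response to shear stress and for its release of vasoactive substances such as endothelin and nitric oxide.

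The marker that brought in most nuclei was Sox17. It had a UMI in 155 of the 188 nuclei (82.4%), against 78 for Sema3g, a secreted semaphorin, 48 for the Notch target Hey1 and 17 for Gja5, which encodes connexin 40. At least 2 of the 4 markers were seen together in 98 nuclei (52.1%), while 71 nuclei (37.8%) met the rule through Sox17 UMIs alone. The level of Sox17 in arterial nuclei was 2061 CPM (UMIs of the gene per 1000000 UMIs of the class) in Sham-NS, 1241 in MI-NS, with 1592 in MI-DAPA. Sema3g stood at 614, 750 and 588 CPM in the same order, Hey1 at 369, 314 and 346, and Gja5 at 40.9, 136 and 208 CPM from 3, 10 and 6 UMIs. These genes chose the nuclei, so their levels are a description. Just inside the threshold were 117 nuclei with exactly 2 marker UMIs, and 71 had 3 or more. Just outside it were 470 vascular endothelial nuclei with exactly 1, which were placed in neither class, and the 3987 with none are called other vascular endothelial nuclei below. In non-endothelial nuclei Sox17 stood at 9.97, 7.25 and 4.31 CPM.

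Depth per nucleus was low. Arterial nuclei had a median of 703 UMIs in Sham-NS, 868 in MI-NS, with 711 in MI-DAPA, and summed to 73265, 73342 and 28890 UMIs. A gene without a UMI could therefore have had up to 3 counts, or 40.9 CPM in Sham-NS and MI-NS and 104 CPM in MI-DAPA. The libraries shared 13 to 20 cell barcodes in pairs, none of them between arterial nuclei. Mitochondrial genes made up a median of 4.31%, 1.60% and 3.13% of arterial UMIs, and the nuclear transcript Malat1 stood at 33631, 79491 and 41122 CPM, so the MI-NS library stood apart in both measures. Their part in the differences between conditions was not tested.

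To check the name against genes that the rule did not use, arterial nuclei were compared with other vascular endothelial nuclei by edgeR's quasi-likelihood test over the 3 libraries, with the library as a block. The spread in this test includes any difference between the 3 conditions. The 20 genes of the rule and mitochondrial genes were left out. Of 7176 genes tested, 30 were higher in arterial nuclei (0.418% of those tested) and 10 were lower (0.139%), at a Benjamini-Hochberg adjusted p below 0.05. Of these 40 genes, 39 kept 1 direction in every library, by ratios with 0.5 UMI added to each sum. Without Sham-NS 10 genes were higher and 2 lower, and without MI-DAPA 9 and 0, while without MI-NS 23 and 8 passed. With the same nuclei and genes but no library block 6 were higher and none lower, and DESeq2 called 15 and 0.

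The smallest p was that of Mecom, which encodes a zinc-finger transcription factor. Its level in arterial nuclei was 1065 CPM (842 to 1329) in Sham-NS, 1064 (841 to 1327) in MI-NS, with 1038 (701 to 1482) in MI-DAPA, against 379, 340 and 360 CPM in other vascular endothelial nuclei and 70.8, 106 and 74.1 CPM in non-endothelial nuclei. Every arterial value lay above every other value, and the 3 arterial levels differed by less than their counting error. The log2 fold change was 1.49 ± 0.17 (SE, adjusted p = 3.94e-13 by edgeR's quasi-likelihood test), and Mecom kept its call in 11 of 11 alternative settings. The gene lies at chr3:29951296-30548008 on the minus strand of GRCm38. Eps8l2, a gene for a protein of the EPS8 family that binds actin, stood at 205, 136 and 277 CPM in arterial nuclei against 18.2, 8.66 and 18.4 CPM in the others. Its log2 fold change was 3.64 ± 0.45 (adjusted p = 1.13e-11 by edgeR), and it kept its call in 10 of the 10 settings that tested it.

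**Figure D1:**
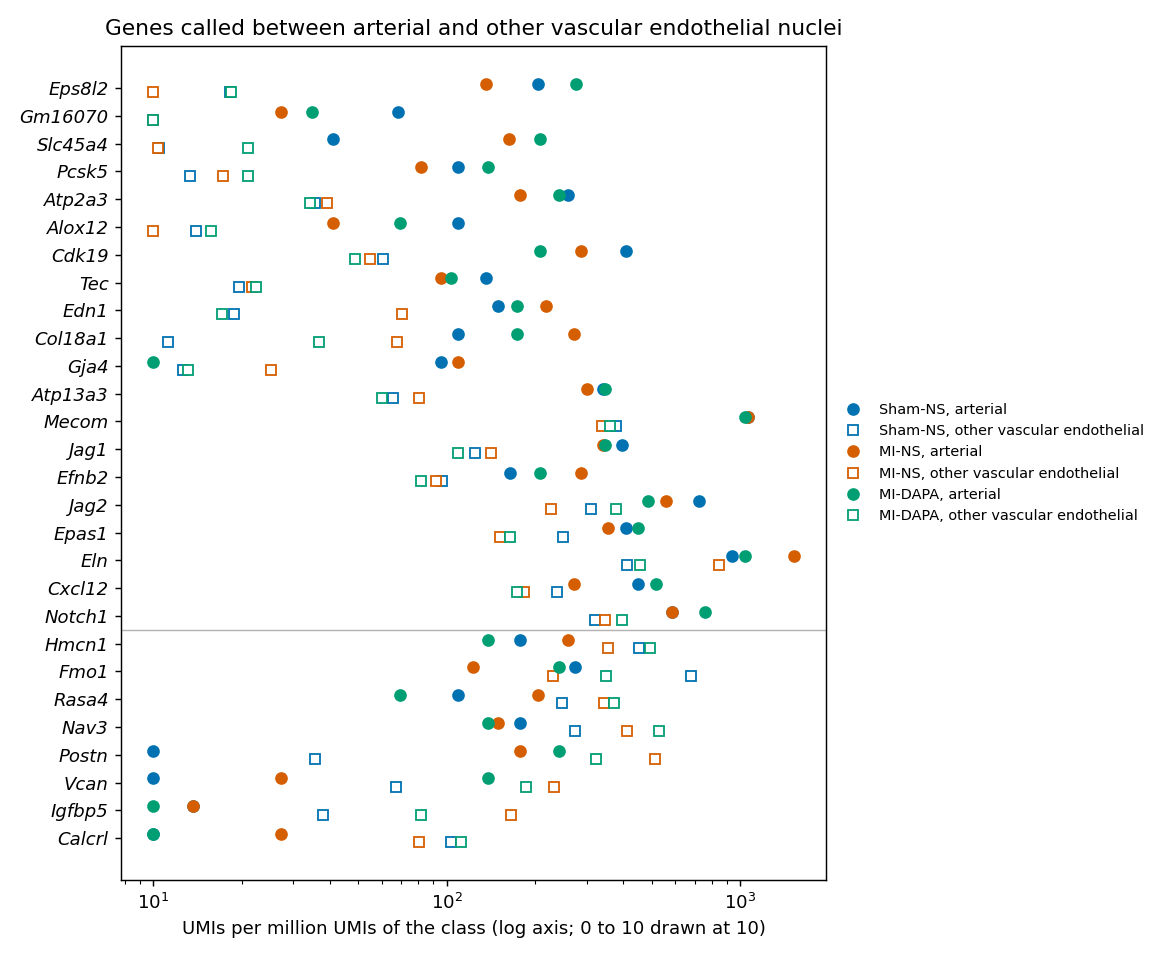
Levels, in CPM on a log axis, of the 12 genes with the highest log2 fold change, then the other called genes of the arterial identity and Notch lists and, under the line, the 8 genes with the lowest. Filled circles are arterial nuclei and open squares other vascular endothelial nuclei of the same library, coloured by library, with values under 10 drawn at 10. Mecom and Eps8l2 separate the classes in every library, and the genes under the line lie to the left in arterial nuclei.

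Genes of a list of arterial identity, from which the rule's genes were removed, were counted next. The list was chosen with earlier results of these data known, so its counts are a description and no independent check. Of its 34 members 26 were tested, 8 were higher and none lower, with 21 of 26 log2 fold changes above 0 (43.1% of all genes tested) and a median of 1.06, against -0.09 over all genes tested. The 8 were Mecom, Slc45a4, Pcsk5, Gja4, Efnb2, Eln, Epas1 and Cxcl12. Gja4, which encodes connexin 37, had 7, 8 and 0 UMIs in arterial nuclei and a log2 fold change of 2.19 ± 0.55 (adjusted p = 0.0152 by edgeR). Its direction in MI-DAPA rests on the 0.5 UMI added, since other vascular endothelial nuclei stood at 13.1 CPM there. Efnb2 encodes ephrin B2, the classical surface mark of arteries, and stood at 164, 286 and 208 CPM against 96.5, 91.8 and 81.4 CPM, a log2 fold change of 1.21 ± 0.33 (adjusted p = 0.0457 by edgeR). Cxcl12, the chemokine that arterial endothelium gives off in the heart, stood at 450, 273 and 519 CPM against 239, 183 and 173 CPM, with a log2 fold change of 0.89. Eln, the gene of elastin, stood at 942, 1527 and 1038 CPM against 411, 851 and 457 CPM, with a log2 fold change of 0.98. In MI-NS 31 of the 112 arterial UMIs of Eln came from 1 nucleus, and non-endothelial nuclei stood at 751 CPM there. Pcsk5, a proprotein convertase, had a log2 fold change of 2.59 and Epas1, the hypoxia-inducible factor HIF2A, 0.99. Efnb2 and Cxcl12 each kept the call in 1 of 11 alternative settings, Gja4 in 1 of 8 and Epas1 in 3 of 11, so these calls lie at the edge of what the depth shows.

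Notch genes were read as a list of their own. Of 26 members 23 were tested, and 3 were higher (0.418% of all genes tested) and none lower (0.139%), with a median log2 fold change of 0.37. The 3 were the ligands Jag1 and Jag2 and the receptor Notch1. Jag1 stood at 396 CPM (265 to 568) in Sham-NS, 341 (221 to 503) in MI-NS, with 346 (166 to 637) in MI-DAPA, against 125, 141 and 109 CPM in other vascular endothelial nuclei, a log2 fold change of 1.45 ± 0.26 (adjusted p = 3.74e-05 by edgeR). Jag2 stood at 723, 559 and 485 CPM against 311, 226 and 377 CPM, with a log2 fold change of 0.99. Notch1 stood at 587, 586 and 762 CPM against 320, 346 and 397 CPM, with a log2 fold change of 0.78, and kept its call in 1 of 11 alternative settings. The tip and arterial ligand Dll4 did not pass (log2 fold change 0.72 ± 0.34, adjusted p = 0.76 by edgeR), nor did the receptor Notch4 (0.70 ± 0.23, adjusted p = 0.235). Hey2, a Notch target, had 0, 3 and 0 arterial UMIs and could not be read at this depth.

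Further genes were higher, some of them on other lists. Of the vasoactive list 20 were tested, Edn1 and Gja4 were higher and Calcrl lower, with a median log2 fold change of -0.03. Of the basement membrane and elastic matrix list 30 were tested, Col18a1, Eln and Lama5 were higher and Vcan lower, and 19 were below 0, with a median of -0.26. Edn1, which encodes endothelin 1, a strong constrictor, stood at 150, 218 and 173 CPM in arterial nuclei against 18.9, 70.2 and 17.1 CPM, with a log2 fold change of 2.32 ± 0.44 (adjusted p = 0.000101 by edgeR). Its UMIs came from 7, 10 and 2 nuclei. Alox12, a lipoxygenase, had a log2 fold change of 2.52, and Atp2a3, the calcium pump SERCA3, 2.54. Col18a1, the basement membrane collagen that yields endostatin, had 2.31, and Lama5, a laminin chain, 0.84. The other genes among the 12 highest log2 fold changes were Slc45a4 (3.17), a sugar transporter of the arterial identity list, Cdk19 (2.43), a kinase of the Mediator complex, Tec (2.37), a tyrosine kinase, Atp13a3 (2.16), a transporter of polyamines, and the predicted gene Gm16070 (3.28). Gm16070 had UMIs in 6 arterial nuclei, and Slc45a4 in 13, so single nuclei weigh on them. Cdk19 and Atp13a3 kept the call in 10 of 11 alternative settings and Atp2a3 in 9 of 11, but Edn1 in 5 of 11, Alox12 in 2 of 9, Lama5 in 2 of 11 and Gm16070 in 2 of 7.

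Among the 10 genes lower in arterial nuclei were Calcrl, the receptor component for adrenomedullin and CGRP, and Slc28a2, a nucleoside transporter of the capillary list. Calcrl had 0, 2 and 0 UMIs in arterial nuclei, while other vascular endothelial nuclei stood at 104, 80.6 and 112 CPM (log2 fold change -3.10 ± 0.76, adjusted p = 0.0132 by edgeR), and the call was kept in 3 of 10 settings. Slc28a2 stood at 464, 218 and 588 CPM against 807, 505 and 871 CPM, with a log2 fold change of -0.93. Fmo1, a flavin monooxygenase, stood at 273, 123 and 242 CPM against 681, 230 and 349 CPM. Nav3 had a log2 fold change of -1.29, Rasa4 of -1.20, the matrix gene Postn of -1.32 and Igfbp5, a binding protein of insulin-like growth factors, of -3.10. Hmcn1, of the venous and endocardial list, had -1.10. Vcan, with -2.20, is a matrix gene that fibroblasts also make, and non-endothelial nuclei stood at 90.1, 312 and 250 CPM of it, above other vascular endothelial nuclei in every library. Of the fibroblast markers outside the rule 6 were tested, all 6 were below 0 with a median log2 fold change of -0.63, and Postn is one of them. Summed with Pdgfra and Dcn of the rule, the markers were lower in arterial nuclei in Sham-NS and MI-NS. In MI-DAPA they were higher, at 1835 against 1290 CPM. Their part in the lower genes was not tested. Of all genes tested 56.9% had log2 fold changes below 0. Of the capillary list 20 members were tested, 17 were below 0 and 1 passed. Summed, this list stood at 5623, 3041 and 5019 CPM in arterial nuclei, against 5336, 4228 and 5274 CPM in the others. In Sham-NS the sum was thus not lower in arterial nuclei, and Btnl9 of this list was higher in them there, as given below. Of the venous and endocardial list 14 were tested, 11 were below 0 and 1 passed. Neither the shear stress list (21 tested) nor the BMP and TGF-beta list (22 tested) had a gene that passed.

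The summed levels were also read by the number of marker UMIs per nucleus. The 30 genes called higher summed to 4538 CPM in nuclei with no marker UMI, 7458 with 1, 10111 with 2 and 13340 with 3 or more, over all libraries. Nuclei with none and nuclei with 2 or more are those in which these genes were called, so their values are a description. The nuclei with 1 marker UMI took no part in the calls, and they lay between nuclei with none and nuclei with 2. The 10 genes called lower summed to 3278, 2508, 1702 and 1103 CPM in the same order, and the arterial identity list to 4677, 6263, 7339 and 7781 CPM. Nuclei admitted by Sox17 alone held 8332 CPM (7663 to 9043) of the called-higher genes, against 13309 CPM (12626 to 14019) in those with a UMI of Sema3g, Gja5 or Hey1. The same order held in each library, with 7997 against 14337 CPM in Sham-NS, 9324 against 12272 in MI-NS, with 7054 against 13864 in MI-DAPA. These genes were called with both kinds of nuclei in the arterial class, so that either kind exceeds other vascular endothelial nuclei is no test. The arterial identity list, of which 8 members were called, stood at 6298, 6543 and 4868 CPM (3602 to 6436) in Sox17-only nuclei, at 8204, 8223 and 9084 CPM in those with another marker, and at 4718, 4808 and 4399 CPM in other vascular endothelial nuclei. In MI-DAPA the interval of Sox17-only nuclei thus includes the level of other vascular endothelial nuclei. There Mecom stood at 397 CPM (108 to 1018) against 360 CPM, and Eln, from 1 UMI, at 99.4 CPM against 457 CPM. Sox17-only nuclei were 41 of 92 in Sham-NS, 18 of 63 in MI-NS, with 12 of 33 in MI-DAPA.

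**Figure D2:**
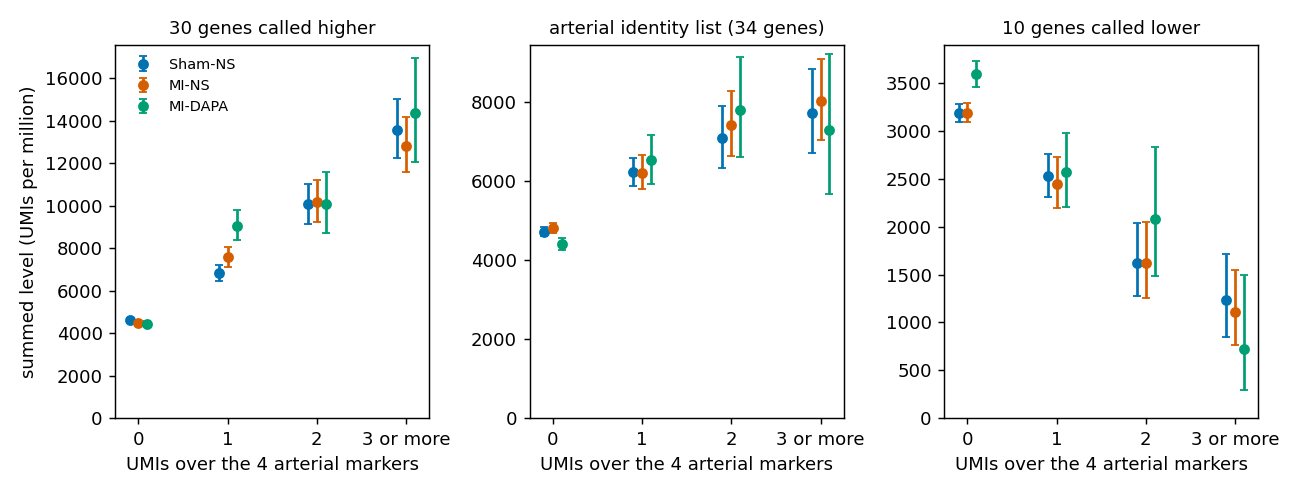
Summed level in CPM of the genes called higher, the arterial identity list and the genes called lower, in vascular endothelial nuclei with 0, 1, 2 and 3 or more UMIs over the 4 arterial markers. Points are libraries and bars exact Poisson intervals. From 0 to 3 or more marker UMIs the called-higher genes went from 4538 to 13340 CPM over all libraries and the called-lower genes from 3278 to 1103.

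Promoters of genes called higher were read for the letters bound by the Notch partner RBPJ (TGGGAA) and by SOX factors (AACAAT), on both strands of the 250 bases before each RefSeq start (GRCm38.p6). Of the 30 genes 20 had an entry, with 28 start sites. TGGGAA was in 5 of the 28 windows (17.9%), against 21.6% of all 32851 windows, and AACAAT in 0 of 28, against 9.42% of all windows. Pcsk5 and Cxcl12 are shown because they are arterial identity genes with the RBPJ letters, which are in capitals. Both windows are given 5′ to 3′ on the strand of the gene, Pcsk5 from the minus strand at chr19:17837633-17837882 and Cxcl12 from the plus strand at chr6:117168285-117168534. A match here is a description of the letters and not a binding site.
Pcsk5: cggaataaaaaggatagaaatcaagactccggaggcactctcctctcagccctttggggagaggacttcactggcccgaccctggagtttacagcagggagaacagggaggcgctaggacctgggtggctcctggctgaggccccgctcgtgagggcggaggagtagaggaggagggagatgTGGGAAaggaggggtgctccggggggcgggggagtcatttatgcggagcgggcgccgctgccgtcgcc
Cxcl12: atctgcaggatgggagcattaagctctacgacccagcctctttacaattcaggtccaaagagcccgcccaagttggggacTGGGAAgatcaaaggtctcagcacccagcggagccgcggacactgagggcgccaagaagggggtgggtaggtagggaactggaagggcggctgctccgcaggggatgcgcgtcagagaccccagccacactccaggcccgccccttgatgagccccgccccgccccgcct

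Arterial nuclei made up 4.32% (3.50 to 5.27) of vascular endothelial nuclei in Sham-NS, 4.53% (3.50 to 5.76) in MI-NS and 2.94% (2.03 to 4.10) in MI-DAPA. The intervals overlap, and there is no replicate against which to set the lower MI-DAPA value. When every nucleus was thinned to 500 UMIs, so that depth could not set the share, the values were 2.53%, 2.29% and 1.65%, with Sham-NS now the highest. Where at least 500 genes and at most 5% mitochondrial UMIs were required, the values were 3.94%, 4.78% and 3.92%, with MI-DAPA next to Sham-NS. Of all nuclei that passed the 3 filters, arterial nuclei were 1.47%, 1.08% and 0.903%. A share of nuclei does not tell fewer arterial cells from a different yield of other cells.

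**Figure D3:**
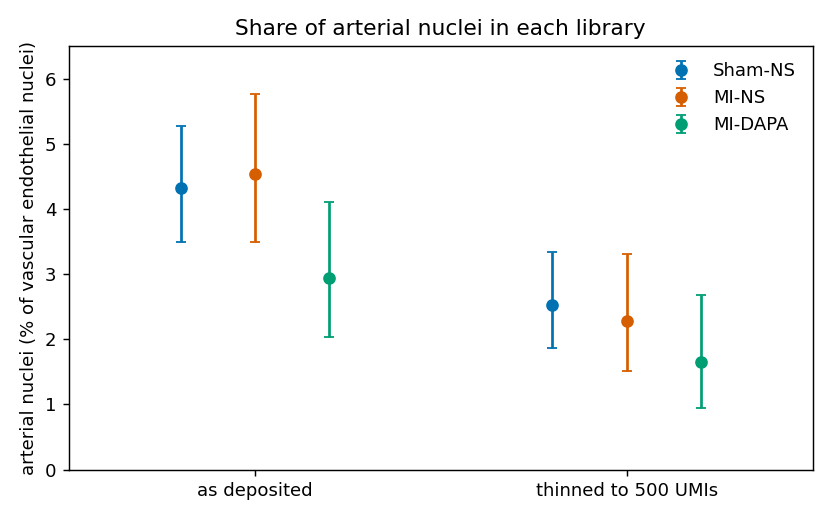
Arterial nuclei as a percentage of vascular endothelial nuclei in each library, as deposited and after thinning each nucleus to 500 UMIs. Bars are exact binomial intervals, which overlap between the 3 libraries in both settings.

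Markers of other cell types were read in the same nuclei before conditions were compared. The 8 fibroblast markers summed to 232, 2059 and 1835 CPM in arterial nuclei, against 497, 3361 and 1290 CPM in other vascular endothelial nuclei. In arterial nuclei Lum and Postn were at 0 in Sham-NS and Pdgfra and Lum at 0 in MI-DAPA. The 8 cardiomyocyte markers, each with a UMI in each library, summed to 6429, 2454 and 5192 CPM, and the 6 macrophage markers to 205, 40.9 and 415 CPM, with Adgre1 at 0 in all 3. Of 7 smooth muscle markers 3, 4 and 1 had a UMI, with a sum of 205, 300 and 173 CPM, and 7 pericyte markers summed to 450, 709 and 242 CPM. The 7 capillary markers summed to 2198, 954 and 1696 CPM, against 1479, 1149 and 1513 CPM in other vascular endothelial nuclei. Most of the arterial sum in Sham-NS was Btnl9, which was higher there in arterial nuclei, as given below. The higher sum in Sham-NS thus rests on that gene. The 5 lymphatic markers summed to 40.9, 109 and 346 CPM, from 3, 8 and 10 UMIs, against 106, 163 and 151 CPM in the others. In MI-DAPA the intervals were 166 to 637 and 125 to 181. The 6 endocardial markers summed to 27.3, 81.8 and 104 CPM, against 66.5, 155 and 53.9 CPM in the others. The 6 venous markers summed to 437, 491 and 208 CPM, against 610, 447 and 411 CPM. The part of all these marker sets in the contrasts below was not tested. No doublet caller was run here.

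Between conditions a gene was read when both libraries together held at least 30 UMIs in arterial nuclei, and it was called when it differed at least 2-fold with an interval excluding 1. Ratios are log2 of CPM with 0.5 UMI added. The first comparison asks how arterial nuclei differ after infarction. Of 843 genes, 35 (4.15%) were called higher with MI-NS relative to Sham-NS and 95 lower (11.3%), with a median log2 ratio of -0.18. Of the 35 genes 33 had a ratio of the same direction in other vascular endothelial nuclei, and so had 91 of the 95, while 16 and 28 differed at least 2-fold there. With MI-NS depth spread over 63 nuclei and Sham-NS over 92, the sums behind the ratios were nearly equal in size.

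Extracellular matrix genes led the higher side. Tnc, which encodes tenascin C, a matrix protein of wounds and remodelling vessels, had 0, 37 and 0 UMIs. The MI-NS UMIs came from 10 nuclei, 13 of them from 1 nucleus, and the level was 504 CPM (355 to 695), against 54.6 CPM in other vascular endothelial nuclei of that library. Relative to Sham-NS, Tnc was thus at least 12.3-fold higher, by a floor of 3 counts in the library without a UMI. This bound, like the other fold bounds below, leaves out the counting error of the library that has UMIs. Comp, a cartilage matrix protein that scar fibroblasts also make, had 0, 34 and 2 UMIs and was at least 11.3-fold higher by the same floor. Its arterial level of 464 CPM in MI-NS came with 344 CPM in other vascular endothelial nuclei and 328 CPM in non-endothelial nuclei, which were also high. Ccn2, which encodes connective tissue growth factor, had 1, 31 and 1 UMIs, a log2 ratio of 4.39 (2.37 to 10.3), and stood at 331 CPM in non-endothelial nuclei of MI-NS.

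The 2 main chains of vascular basement membrane, Col4a1 and Col4a2, were both higher. Col4a2 stood at 123 CPM in Sham-NS, 545 in MI-NS, with 208 in MI-DAPA, a log2 ratio of 2.09 (1.08 to 3.38) for MI-NS to Sham-NS. Col4a1 stood at 205, 586 and 588 CPM, with a log2 ratio of 1.49 (0.64 to 2.47). Of 34 basement membrane and elastic matrix genes 12 were measurable, and 10 of these had a ratio above 0 (35.6% of all 843), 2 were called higher and 1 lower. The one called lower was Lamb2, a laminin chain, at 928, 423 and 415 CPM. Summed over all members the list had a log2 ratio of 0.48 (0.31 to 0.64) in arterial nuclei and of 0.63 (0.59 to 0.67) in other vascular endothelial nuclei. The list of endothelial to mesenchymal transition summed to a log2 ratio of 1.56 (1.24 to 1.90), and to 2.16 in other vascular endothelial nuclei. It holds fibroblast genes, and the fibroblast markers moved with it as given above.

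Sat1, which encodes the enzyme that acetylates polyamines for export, stood at 191 CPM (104 to 321) in Sham-NS, 995 (780 to 1251) in MI-NS, with 623 (369 to 985) in MI-DAPA. The MI-NS UMIs were spread over 34 nuclei, with at most 6 in 1 nucleus. The log2 ratio of MI-NS to Sham-NS was 2.34 (1.54 to 3.32) in arterial nuclei and 0.62 (0.40 to 0.84) in other vascular endothelial nuclei, where levels were 216, 332 and 246 CPM. The 2 intervals do not overlap, and the difference between the classes was not tested further. Mcam, an adhesion molecule of endothelium and mural cells, stood at 95.5, 382 and 69.2 CPM (log2 ratio 1.92). Ghr, the growth hormone receptor, stood at 109, 423 and 104 CPM (1.89), and Gnb4, a G protein subunit, at 95.5, 327 and 104 CPM (1.71). Notch4 was the Notch gene called higher, at 273, 559 and 381 CPM, with a log2 ratio of 1.02 (0.23 to 1.88). B2m, the light chain of MHC class I, stood at 123, 341 and 104 CPM (1.42).

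Genes of the circadian clock were on the lower side. All 4 measurable genes of the 22 on the clock list were called lower. A gene was measurable only with enough UMIs over both libraries, and these 4 had most of theirs in Sham-NS. Clock genes with few UMIs in both, such as Arntl, given below, could not enter. The count is therefore a description, and it is not set against the share of all genes called lower. Per2, a repressor of the clock, had 49, 0 and 0 UMIs, so relative to Sham-NS it was at least 16.4-fold lower in MI-NS, and at least 6.44-fold lower in MI-DAPA. In Sham-NS its UMIs came from 35 of the 92 nuclei. Tef, a transcription factor driven by the clock, stood at 737 CPM (554 to 962), 95.4 (38.4 to 197) and 69.2 (8.38 to 250), a log2 ratio of -2.86 for MI-NS to Sham-NS. Nr1d2, which encodes the repressor REV-ERB beta, stood at 519, 164 and 242 CPM (-1.62), and Per3 at 328 and 136 CPM and 0 UMIs (-1.22). Both infarct libraries lay below Sham-NS for all 4 genes. Arntl, which encodes the activator BMAL1 and peaks opposite to the period genes, had 0, 7 and 3 UMIs. Other vascular endothelial nuclei had the same pattern, with Per2 at 530, 18.2 and 15.8 CPM, as did non-endothelial nuclei, at 279, 16.5 and 21.0 CPM. The labels give no time of day for the tissue, so collection time and surgery cannot be told apart.

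The promoters of 2 of these clock genes are shown because they hold the letters of clock elements. The E-box CACGTG, bound by CLOCK and BMAL1, and the D-box TTATGTAA, bound by DBP and TEF, were searched on both strands. CACGTG was in 6 of the 23 windows of the clock list (26.1%), against 6.02% of all windows, and TTATGTAA in 1 of the 23, against 0.819%. The genes with CACGTG were Bhlhe41, Ciart, Cry1, Per1 and Tef, of which only Tef was called lower. These shares describe letters in a list of clock genes, and they do not bear on the levels in these nuclei. Per3 holds the D-box 2 times and Tef the E-box once, in capitals. The window of Nr1d2, also called lower, holds neither. Per3 is from the minus strand at chr4:151044666-151044915 and Tef, before the second of its RefSeq starts, from the plus strand at chr15:81811164-81811413. Per2 has no entry in the table used.
Per3: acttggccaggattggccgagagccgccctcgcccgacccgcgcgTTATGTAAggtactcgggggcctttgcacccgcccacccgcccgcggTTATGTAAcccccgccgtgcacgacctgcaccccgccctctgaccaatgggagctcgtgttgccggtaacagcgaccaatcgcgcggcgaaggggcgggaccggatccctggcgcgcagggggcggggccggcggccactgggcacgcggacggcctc
Tef: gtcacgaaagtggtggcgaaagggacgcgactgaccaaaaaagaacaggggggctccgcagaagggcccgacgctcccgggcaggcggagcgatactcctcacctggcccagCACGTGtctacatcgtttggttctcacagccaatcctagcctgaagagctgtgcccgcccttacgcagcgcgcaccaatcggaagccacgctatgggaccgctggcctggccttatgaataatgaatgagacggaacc

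The other genes among the 8 lowest were of several kinds. Xdh, which encodes xanthine oxidoreductase, stood at 1638 CPM (1358 to 1959) in Sham-NS, 314 (199 to 471) in MI-NS, with 762 (477 to 1153) in MI-DAPA, a log2 ratio of -2.36 for MI-NS to Sham-NS. Both infarct libraries lay below Sham-NS, and other vascular endothelial nuclei had the same order of Sham-NS over the others, at 2008, 596 and 619 CPM. Ablim3, an actin-binding gene, stood at 587, 123 and 381 CPM (-2.20), Mcf2l, a guanine nucleotide exchange factor, at 710, 150 and 138 CPM (-2.19), and the kinase gene Jak1 at 355, 81.8 and 312 CPM (-2.03). For Jak1 the ratio in other vascular endothelial nuclei was -0.16 (-0.42 to 0.09). Serinc3, Tcim and Mllt6 completed the 8 lowest, with log2 ratios of -2.02, -1.91 and -1.88.

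Of the BMP and TGF-beta list 5 of 29 genes were measurable, and 3 were called lower, against 11.3% of all genes measured. As background, Eng and Acvrl1 encode endoglin and ALK1, the receptor pair for circulating BMP9 and BMP10, and Id1 is a standard target of BMP receptors. Eng stood at 1283 CPM (1037 to 1570) in Sham-NS, 450 (310 to 632) in MI-NS, with 865 (560 to 1277) in MI-DAPA, a log2 ratio of -1.50 (-2.13 to -0.93) for MI-NS to Sham-NS. Acvrl1 stood at 355, 164 and 104 CPM (-1.09), and Id1 at 314, 123 and 346 CPM (-1.31). In other vascular endothelial nuclei the log2 ratios were -0.88 for Eng, 0.19 (-0.10 to 0.48) for Acvrl1 and -0.54 for Id1. The list as a whole summed to -0.45 (-0.73 to -0.18) in arterial nuclei and -0.08 in the others.

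Capillary genes, which arterial nuclei also express, were lower in MI-NS. Of 20 list members 6 were measurable, all 6 had ratios below 0 (64.4% of all 843) and 3 were called lower: Btnl9, Slc28a2 and Lpl. Btnl9, a butyrophilin-like gene, stood at 1542 CPM (1271 to 1854) in Sham-NS, 559 (401 to 758) in MI-NS, with 1177 (815 to 1645) in MI-DAPA, a log2 ratio of -1.45 (-2.02 to -0.94). In other vascular endothelial nuclei its level was 648, 633 and 888 CPM and the ratio -0.04 (-0.18 to 0.11), so the 2 intervals lay apart. Though on the capillary list, Btnl9 was thus higher in arterial nuclei in Sham-NS and MI-DAPA. Lpl, the lipoprotein lipase gene, stood at 409, 123 and 208 CPM. The list summed to a log2 ratio of -0.89 (-1.13 to -0.65) in arterial nuclei, against -0.34 (-0.39 to -0.28) in the others. Pdgfb, by which endothelium recruits mural cells, stood at 409, 150 and 242 CPM (-1.41), and was not lower in other vascular endothelial nuclei (0.18, -0.09 to 0.45). Klf4, a transcription factor induced by shear stress, stood at 423, 150 and 346 CPM (-1.46), whereas its relative Klf2 had 14, 13 and 4 UMIs and Nos3, the endothelial nitric oxide synthase gene, stood at 409, 464 and 658 CPM.

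Of the arterial identity list 10 genes were measurable between MI-NS and Sham-NS. Of these, 7 had ratios below 0 (64.4% of all 843), 2 were called lower (11.3% of all) and none higher (4.15% of all). The 2 were Ablim3 and Acvrl1, given above. Of the Notch list 5 were measurable, and 4 had ratios below 0 (64.4% of all 843). Notch4 was called higher and Spen, a corepressor that binds RBPJ, lower. Spen stood at 437, 136 and 381 CPM, with a log2 ratio of -1.63 (-2.87 to -0.62), and -1.18 in other vascular endothelial nuclei. Among the genes called between the classes, Mecom had a log2 ratio of 0.00 (-0.47 to 0.47), Notch1 of 0.00 (-0.65 to 0.64) and Jag1 of -0.21 (-1.05 to 0.61), and Cxcl12 had -0.71 (-1.60 to 0.12). Dll4, with 7, 16 and 8 UMIs, was below the number of UMIs needed. The arterial identity list summed to 0.07 (-0.11 to 0.24), a sum that turns to -0.02 with TMM factors (edgeR's scaling for composition), and the Notch list to -0.05 (-0.29 to 0.19). Each interval leaves room for a change of the size it spans.

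**Figure D4:**
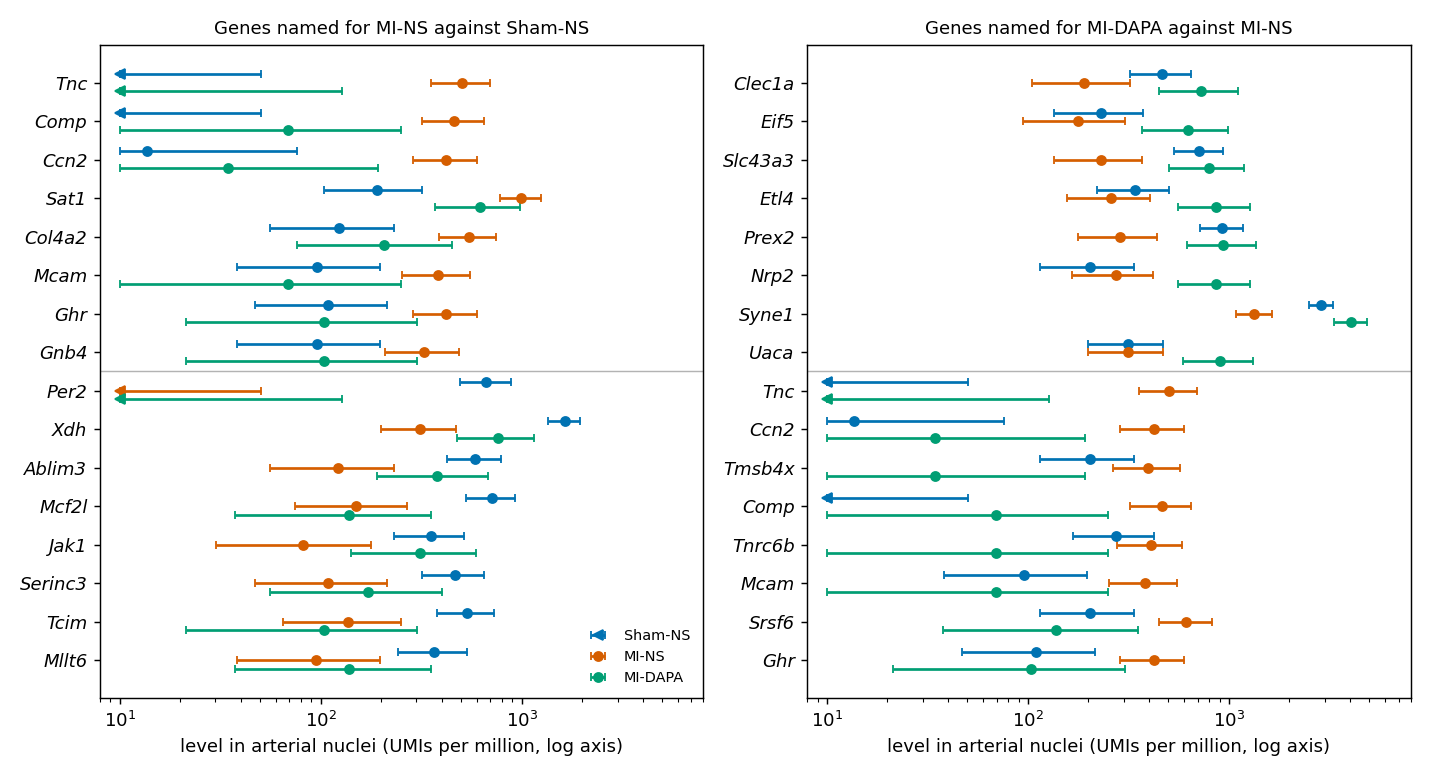
Levels in arterial nuclei (CPM, log axis) of the 8 highest and 8 lowest named genes for MI-NS against Sham-NS, left, and for MI-DAPA against MI-NS, right. Points are libraries, bars exact Poisson intervals, and a triangle marks 0 UMIs, drawn at 10. Tnc, Comp and Ccn2 were high in MI-NS only among the 3 libraries, and Per2 had UMIs in Sham-NS alone.

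The second comparison asks how arterial nuclei of infarcted hearts differed with dapagliflozin, and it rests on the 33 nuclei of MI-DAPA. Of 491 measurable genes, 39 were called higher in MI-DAPA than in MI-NS (7.94%) and 22 lower (4.48%), with a median log2 ratio of 0.20. This split depends on scaling: with TMM factors the median moved by -0.25, and 18 genes were called higher and 43 lower. Of the 39 genes called higher 36 had the same direction in other vascular endothelial nuclei, but 2 differed at least 2-fold there, and of the 22 called lower 17 and 4. This contrast shares the MI-NS library with the first, so the values are given side by side for all 3 libraries.

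The matrix genes Tnc, Comp and Ccn2, high in MI-NS, were low in MI-DAPA. Of the basement membrane and elastic matrix list 12 members were measurable, and 7 had ratios above 0 (65% of all 491). None was called higher and Col4a2 was called lower, and the list summed to -0.11 (-0.32 to 0.09). Tnc, with 0 UMIs in MI-DAPA, was at least 4.86-fold lower. Ccn2 had a log2 ratio of -3.05 (-8.96 to -1.03), Comp of -2.44 (-5.85 to -0.78), Mcam of -2.17 (-5.58 to -0.48) and Ghr of -1.83 (-4.38 to -0.34), each from 1 to 3 UMIs in MI-DAPA. Comp and Ccn2 were also lower in other vascular endothelial nuclei, at 88.0 against 344 CPM and 61.7 against 307 CPM. Col4a1 had a log2 ratio of 0.03 (-0.90 to 0.85). Tmsb4x, which encodes thymosin beta 4, stood at 205, 395 and 34.6 CPM, and Srsf6 and Tnrc6b, genes of RNA processing and silencing, at 205, 614 and 138 CPM and at 273, 409 and 69.2 CPM. For these 3 genes other vascular endothelial nuclei had log2 ratios of -0.25, -0.22 and 0.08.

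Of the 8 genes with the highest ratios of MI-DAPA to MI-NS, 4 had Sham-NS levels above those of MI-NS with intervals apart. The genes were picked for a high ratio over MI-NS, which favours low MI-NS sums, and Sham-NS is set against the same sums. This count is therefore a description. Syne1, a protein of the nuclear envelope, stood at 2866 CPM in Sham-NS, 1336 in MI-NS, with 4050 in MI-DAPA, a log2 ratio of 1.60 (1.20 to 2.00) for MI-DAPA to MI-NS. Slc43a3, a purine transporter, stood at 710, 232 and 796 CPM (1.77), Prex2, an exchange factor for Rac, at 928, 286 and 935 CPM (1.70), and Clec1a, a lectin-like receptor of endothelium, at 464, 191 and 727 CPM (1.91). Nrp2, a coreceptor for semaphorins and VEGF, stood at 205 CPM (115 to 338) in Sham-NS, 273 (167 to 421) in MI-NS, with 865 (560 to 1277) in MI-DAPA. Its log2 ratio was 1.66 (0.76 to 2.59) in arterial nuclei and 0.22 (0.06 to 0.37) in the others. Etl4, Eif5 and Uaca, at 341, 259 and 865 CPM, 232, 177 and 623 CPM and 314, 314 and 900 CPM, were likewise highest in MI-DAPA.

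Of the 28 genes of the VEGF and angiopoietin list 10 were measurable, 8 had ratios above 0 (65% of all 491), 3 were called higher (7.94% of all) and 1 lower. Kdr, the main VEGF receptor, stood at 614 CPM in Sham-NS, 504 in MI-NS, with 1108 in MI-DAPA, a log2 ratio of 1.14 (0.41 to 1.86), and was higher in other vascular endothelial nuclei too (0.54). Tek, the angiopoietin receptor, stood at 273, 205 and 554 CPM (1.43), but 5 of its 16 MI-DAPA UMIs were in 1 nucleus, and other vascular endothelial nuclei had no such difference (0.00, -0.29 to 0.27). The list summed to 0.38 (0.15 to 0.60), or 0.13 with TMM factors, and it turned to -0.046 in nuclei with at least 3 marker UMIs. Of the capillary list 4 genes were measurable and 3 called higher (7.94% of all): Btnl9 (1.08, 0.37 to 1.77), Slc28a2 (1.43, 0.36 to 2.51) and Kdr. As Kdr is on both lists, their counts and sums are not separate. The capillary list summed to 0.72 (0.41 to 1.03), or 0.47 with TMM factors, and to 0.32 (0.26 to 0.38) in the others. The vasoactive list summed to -0.68 (-1.21 to -0.21) from 44 MI-DAPA UMIs.

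**Figure D5:**
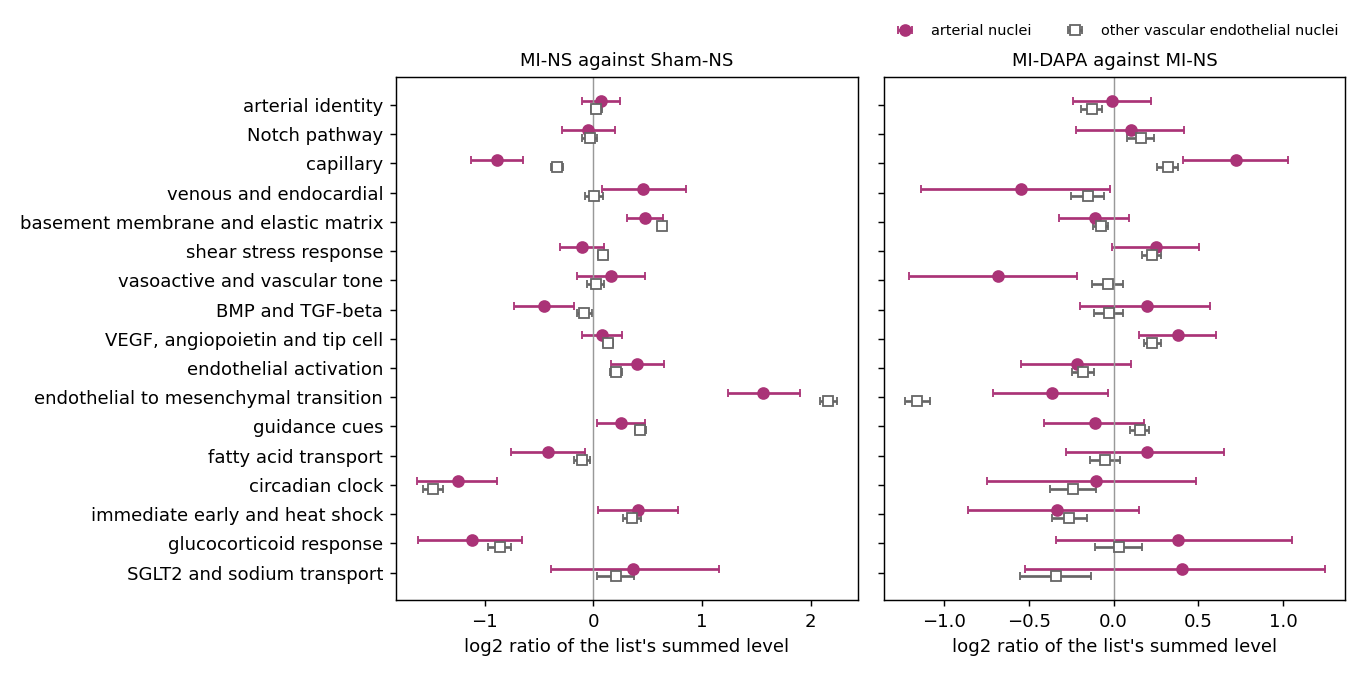
Log2 ratio of each list's summed level for MI-NS against Sham-NS and for MI-DAPA against MI-NS, with exact conditional intervals, in arterial nuclei (filled circles) and other vascular endothelial nuclei (open squares). In arterial nuclei the capillary list lies at -0.89 and then 0.72, the clock list at -1.24 and then -0.10, and the arterial identity list near 0 in both.

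The last comparison sets MI-DAPA beside Sham-NS. Of 553 measurable genes, 22 were called higher in MI-DAPA (3.98%) and 30 lower (5.42%), with a median log2 ratio of 0.01. TMM factors moved that median by -0.34 and gave 11 and 65. Nrp2 was highest (log2 ratio 2.06, 1.10 to 3.11), followed by Sat1 (1.69, 0.62 to 2.82) and Nav1 (1.59, 0.87 to 2.32), a microtubule-binding protein that stood at 437, 777 and 1315 CPM. Uaca, Traf7, Plec and Pcmtd1 had log2 ratios of 1.43 to 1.52. Npr1, the receptor for atrial natriuretic peptide, stood at 437 CPM (299 to 617), 327 (210 to 487) and 69.2 (8.38 to 250), and its log2 ratio of -2.36 compares with -0.36 in other vascular endothelial nuclei. Pdzd2, Mcf2l, Tcim, Ebf1, Sec14l1 and Cdc42bpa followed, with log2 ratios from -2.31 to -1.62. Each of these lower genes had 2 to 6 UMIs in MI-DAPA.

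Genes tied to the drug or to the study's title were sparse. Slc5a2, which encodes the drug's target SGLT2, had 0 UMIs in the arterial nuclei of each library, as had the related transporter Slc5a1 and the inflammasome gene Nlrp3. Those zeros allow up to 40.9 CPM in Sham-NS and MI-NS and 104 CPM in MI-DAPA.

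Within the arterial class, the 17 nuclei with a Gja5 UMI were set beside nuclei with Sema3g and no Gja5, since Gja5 is higher in larger arteries. Of 316 genes with at least 30 UMIs, 77 (24.4%) had ratios of 1 direction in every library, so most did not. That is about the share in which 3 unrelated directions would agree. In Sham-NS the Gja5 nuclei held 2170 UMIs, so the direction of a gene without a UMI there rests in part on the 0.5 UMI added. Of the 316 genes, 18 (5.7%) also had an interval excluding 0. The genes named here were taken from these 18 by their ratios, and their values are a description of few UMIs. Jag1 had 17 UMIs in Gja5 nuclei and 23 in the others, a log2 ratio of 1.33 (0.32 to 2.28), and Mgp, the matrix Gla protein of artery walls, 13 and 18 UMIs (1.30, 0.13 to 2.39). On the other side Slc6a6, a taurine transporter, had 1 and 29 UMIs (-2.55, -8.46 to -0.52) and Kdr 3 and 43 UMIs (-1.89, -4.42 to -0.45). Kitl, Plxna2 and Pcf11 each had 2 UMIs in Gja5 nuclei. Gja5 nuclei were 3 in Sham-NS, 9 in MI-NS, with 5 in MI-DAPA, so these ratios also mix the libraries in unequal parts.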

How the data were processed

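The data were matrices of UMI counts per gene and barcode from 3 single-nucleus libraries (Chromium 3' v3.1, per the labels' protocols), as the authors deposited them. Per the file headers they came from Cell Ranger 6.0.1, and per the submitters' processing notes the build was mm10 and Seurat was used. Whether intronic reads were counted is not given in the sources used here. Nuclei were selected by the rule in the opening, counts were summed per library and class, and levels are CPM. Arterial against other vascular endothelial sums were tested with edgeR 4.0.16 (R 4.3.3; TMM factors, filterByExpr, library as block, checked on simulated data), with DESeq2 1.42.0 as an alternative. The SE is the log2 fold change divided by the square root of the test's F. Conditions, with 1 library each, had no test: levels have exact Poisson, ratios exact conditional binomial and shares Clopper-Pearson intervals. Named genes were the 12 highest and 8 lowest called genes between classes that moved 1 way in every library, the 8 highest and 8 lowest eligible genes of each condition contrast (called, in at least 10 nuclei, at or above the non-endothelial level in the higher library), called members and up to 6 others of 17 gene lists, 17 genes whatever their level, and the 8 highest and 8 lowest between Gja5 and Sema3g nuclei. Of these, 2 are not reported here. Malat1 was chosen after its values were seen, and so were the genes named for lying outside these. The members, lists and rules were chosen with earlier results of these data known. Doublets were limited by the rule's cap on UMIs of other lineages. Gene coordinates are from GENCODE M21 (GRCm38).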

Additional observations from a re-analysis of the deposited data

Results flagged for a closer look

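In 6 cases a gene was called between conditions in arterial nuclei while its interval in other vascular endothelial nuclei lay on the opposite side of 0. The difference between the classes was not tested in any of them. Between MI-NS and Sham-NS, Sulf1, which edits heparan sulphate, had a log2 ratio of -1.53 (-2.95 to -0.38) in arterial nuclei and 0.44 (0.07 to 0.81) in the others. Tshz2, a zinc-finger gene, had 1.03 (0.01 to 2.18) and -0.39 (-0.57 to -0.21). Between MI-DAPA and MI-NS, the caveolar gene Cavin2 had -1.53 (-3.14 to -0.40) and 0.45 (0.27 to 0.63), and Ppp1r12a, a subunit of myosin phosphatase, -1.01 (-2.28 to -0.03) and 0.23 (0.04 to 0.42). Between MI-DAPA and Sham-NS, Odf2 had 1.16 (0.00 to 2.28) and -0.59 (-0.93 to -0.27), and Adgre5, an adhesion receptor, -1.46 (-3.08 to -0.33) and 0.26 (0.06 to 0.46).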

How the results depend on the processing

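Between arterial and other vascular endothelial nuclei (30 higher, 10 lower), the fit with no replicate block, that is without pairing the classes by library, kept 6 of these calls (6 and 0), with 335 genes at an unadjusted p under 0.05, and DESeq2's Wald test 15 and 0, with 144. Leaving out 1 library gave 9 to 23 higher and 0 to 8 lower, nuclei with at least 1000 UMIs 5 and 2 (2981 genes tested), and at least 3 marker UMIs 8 and 3. Every one of the 40 calls that an alternative could test kept its sign there, but 206 of these values kept the call and 218 lost it. The share of arterial nuclei in Sham-NS, MI-NS and MI-DAPA was 2.53%, 2.29% and 1.65% when thinned to 500 UMIs, and 1.60%, 1.94% and 0.890% with at least 3 marker UMIs. For MI-NS against Sham-NS (35 higher, 95 lower), a minimum of 20 UMIs gave 73 higher, a minimum of 60 gave 10 and 31, and at least 3 marker UMIs 17 and 23. No UMI of other lineages gave 21 higher, and at least 500 genes with at most 5% mitochondrial UMIs 46 lower. For MI-DAPA against MI-NS (39 and 22), TMM factors gave 18 and 43, the minimum of 20 gave 59 and 39, that of 60 gave 10 and 1, and 3 marker UMIs 8 and 2. For MI-DAPA against Sham-NS (22 and 30), these gave 11 and 65, 37 and 46, 5 and 4, and 3 and 4. No UMI of other lineages gave 14 higher there, and the stricter nucleus filter 7 and 8. Settings chosen after seeing the data were nuclei with a UMI of Sema3g, Gja5 or Hey1, which gave 21 and 50, 24 and 5, and 8 and 12 in the 3 contrasts, and nuclei under 1000 UMIs, which gave 6 and 33, 6 and 1, and 8 and 16. The sum of the immediate early list turned to -0.068 for MI-NS against Sham-NS with 3 marker UMIs, and that of the VEGF list to -0.046 for MI-DAPA against MI-NS. In nuclei under 1000 UMIs the venous and endocardial list turned to -0.52 for MI-NS against Sham-NS and to 0.27 for MI-DAPA against MI-NS. Of the genes called in arterial nuclei, 2 lay on the other side of 0 in each of 4 cases: MI-NS against Sham-NS with 3 marker UMIs and in nuclei under 1000 UMIs, MI-DAPA against MI-NS in nuclei under 1000 UMIs, and MI-DAPA against Sham-NS with 3 marker UMIs, where 0 of the 22 and 0 of the 30 calls were kept. The causes were not tested. Of the other values of named genes in the condition contrasts, 465 kept the call and 63 lost it with the same sign. The 465 include the settings with a minimum of 20 and of 60 UMIs. Those settings leave the ratio of a named gene as it was, so the call could not be lost there.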

Other observations

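Genes of glucocorticoid response and of fatty acid transport were also read in arterial nuclei. Glucocorticoid genes summed to a log2 ratio of -1.12 (-1.61 to -0.66) for MI-NS against Sham-NS, from 55 and 120 UMIs, and to -0.86 (-0.97 to -0.76) in other vascular endothelial nuclei, with no single gene measurable. For MI-DAPA against Sham-NS the sum was -0.74 (-1.41 to -0.15). Fatty acid transport genes summed to -0.42 (-0.76 to -0.08) for MI-NS against Sham-NS and to -0.10 (-0.18 to -0.03) in the others. Guidance genes summed to 0.25 (0.03 to 0.48) and 0.43 (0.38 to 0.48), with the receptor gene Plxna2 called lower, at 614, 259 and 277 CPM in Sham-NS, MI-NS and MI-DAPA. Endothelial activation genes summed to 0.40 (0.16 to 0.65), and genes of sodium transport and SGLT2 to 0.37 (-0.39 to 1.15) from 35 and 27 UMIs.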
